A study of Mus musculus with 12 samples.

Results

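The metallothionein and zinc handling genes are a set of 8 mouse genes: the metallothioneins Mt1, Mt2 and Mt3, the zinc-sensing transcription factor gene Mtf1, the zinc exporter gene Slc30a1 and the zinc importer genes Slc39a1, Slc39a10 and Slc39a14. They were taken by symbol from a table of FPKM (fragments per kilobase of transcript and per unit of mapped fragments, a level scaled for transcript length and library size), where they are 8 of 23284 symbols. The set was chosen by these same FPKM values: Mt1 and Mt2 were among the largest differences from the embryo group, and the other 6 genes were added as parts of the same pathway. The members' levels and differences are therefore given as a description with no test, and tests are kept for genes outside the set.

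The samples were mouse cells sorted as a7-Integrin+ VCAM+ CD31- CD45-, a surface profile used for muscle progenitors, in 4 groups of 3 libraries that the design text calls biological replicates. For the teratoma group the source was teratomas aged 3 weeks, which are tumours grown from pluripotent stem cells. Cells of the transplant group were re-isolated from the tibialis anterior, a shin muscle, which had received teratoma-derived cells 1 month earlier. The embryo group was taken from whole E14.5 embryos and the adult group from the hindlimbs of 8-week-old males. All 4 groups carry the strain label 129P2/OlaHsd. All were digested with collagenase II and dispase before the sort. The gate as labelled holds no donor marker, so the labels do not say what share of the transplant group's cells came from the host muscle. In bulk RNA, fewer cells of a type and less RNA per cell cannot be told apart, and no label says how many animals were pooled in a library.

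Metallothioneins are small cysteine-rich proteins that bind zinc and copper in the cytosol. When free zinc rises, the zinc finger protein MTF1 binds short metal response elements in the promoters of Mt1, Mt2 and Slc30a1 and raises their transcription. Mt1 and Mt2 are also known to be induced by glucocorticoids, by interleukin 6 through STAT3 and by oxidative stress. Exporters of the Slc30 (ZnT) family carry zinc out of the cytosol, and importers of the Slc39 (ZIP) family carry it in.

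The promoters are shown because the metal response element is the feature by which MTF1 is known to act on these genes. RefSeq promoter windows on GRCm38.p6 were matched for 7 of the 8 members, all but Slc39a14. The 250 bases before the annotated start are printed 5′ to 3′ for the metallothioneins and the zinc exporter. Capitals mark the core of the metal response element, TGCACNC or TGCGCNC on either strand, with overlapping matches allowed.
Mt1 (chr8:94178839-94179088, + strand): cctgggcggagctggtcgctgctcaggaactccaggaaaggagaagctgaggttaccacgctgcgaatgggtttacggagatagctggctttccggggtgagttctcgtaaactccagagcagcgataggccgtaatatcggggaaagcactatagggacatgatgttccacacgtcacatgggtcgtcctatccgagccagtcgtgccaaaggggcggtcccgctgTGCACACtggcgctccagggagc
Mt2 (chr8:94172368-94172617, + strand): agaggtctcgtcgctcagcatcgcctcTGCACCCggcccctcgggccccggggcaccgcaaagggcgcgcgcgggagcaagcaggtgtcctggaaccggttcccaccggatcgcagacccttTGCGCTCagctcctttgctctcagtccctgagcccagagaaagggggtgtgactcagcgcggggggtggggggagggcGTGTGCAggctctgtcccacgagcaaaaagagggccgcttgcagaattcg
Mt3 (chr8:94152357-94152606, + strand): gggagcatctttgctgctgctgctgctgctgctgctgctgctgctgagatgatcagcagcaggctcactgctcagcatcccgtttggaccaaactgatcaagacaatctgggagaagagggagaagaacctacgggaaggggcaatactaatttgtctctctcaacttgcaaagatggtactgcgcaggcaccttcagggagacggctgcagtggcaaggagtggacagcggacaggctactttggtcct
Slc30a1 (chr1:191906531-191906780, + strand): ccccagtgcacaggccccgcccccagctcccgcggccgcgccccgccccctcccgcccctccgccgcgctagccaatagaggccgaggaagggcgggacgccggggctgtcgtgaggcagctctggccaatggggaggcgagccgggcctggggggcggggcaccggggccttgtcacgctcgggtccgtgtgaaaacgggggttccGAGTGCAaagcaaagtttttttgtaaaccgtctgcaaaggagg

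The search covered these 250 bases and the next 50 after the start. Mt2 held 4 matches, 3 of them before the start with first bases at -223, -128 and -50. Mt1 held 3 matches, 1 before the annotated start at -23 and 2 after it at 3 and 21. Slc30a1 held 2 matches, at -43 and 31, and Mt3 held 1, at 28. The windows of Mtf1, Slc39a1 and Slc39a10 held none of these letters. Of 32851 windows of the same length, 25.7% held at least 1 match, 7.11% at least 2, 1.97% at least 3 and 0.517% at least 4. A match is a run of letters in this window and not a measured binding site. Positions count from the annotated RefSeq start of the window. Mt1 has 3 coding transcripts and Mt2 has 2 in GENCODE M21, and windows around any other start were not searched. Which start these cells used is not known. A match after the annotated start may therefore lie before the start in use, and the printed bases may miss its promoter. The counts therefore do not rank the genes by their elements.

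The 3 metallothionein genes lie side by side on chromosome 8 of mm10 (GENCODE M21). Mt3 spans 94152607-94154146, Mt2 spans 94172664-94173568 and Mt1 spans 94179082-94180327, all on the + strand, with 18517 bases between Mt3 and Mt2 and 5513 between Mt2 and Mt1. Mt4, the metallothionein of stratified epithelia, lies 13575 bases before Mt3 and was listed at 0 in all 12 libraries. The longest identical run between Mt1 and Mt2 transcripts was 20 bases, and how the counting treated reads that fit more than 1 of these genes is not given in the sources used here. Their longest coding transcripts have 1085 bases for Mt1, 511 for Mt2 and 536 for Mt3. FPKM of short transcripts depends strongly on the length correction, which also enters the level of the ratio of Mt2 to Mt1.

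The libraries differed in ways that touch every level below. Small and ribosomal RNA genes took from 40.4% of the summed FPKM (embryo replicate 2) to 98.2% (adult replicate 2). Embryo and teratoma each held high and low shares. All adult shares (85.4% to 98.2%) lay above all transplant shares (60.9% to 72.2%). Zeros in genes that reached 5 FPKM in the 2 other libraries of the group numbered 74 in embryo replicate 2 and 6 to 27 in each remaining library, so a 0 there may be a failed estimate. Summed FPKM of 10 myogenic markers ran from 855 to 1014 in adult, 427 to 577 in transplant, 378 to 468 in teratoma and 167 to 179 in embryo. Read depth is unknown, because the values are FPKM.

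Mt1 was lowest in embryonic cells and among the most abundant messages in transplanted ones. Its FPKM was 11.2, 0 and 2.50 in embryo replicates 1, 2 and 3. In teratoma it was 292, 345 and 324. In transplant it was 1015, 936 and 1096, and in adult 509, 564 and 334. All transplant libraries lay above all others and all embryo libraries below all others, while teratoma and adult overlapped in the deposited values. With median-ratio scaling (-1.05 for teratoma against adult) or without small and ribosomal RNA these last groups did not overlap. Among 22499 symbols that are not small or ribosomal RNA, Mt1 ranked 15 to 16 in the transplant libraries, 44 to 83 in adult, 92 to 114 in teratoma and 3856 to 12670 in embryo. Transplant was 3.17 times teratoma and 2.16 times adult by group means, or 1.66 ± 0.0960 (SE) and 1.14 ± 0.240 higher on the log2(FPKM + 1) scale. That scale adds 1 FPKM before the log and so understates the change of low genes. Against embryo the differences were 8.18 for transplant, 7.04 for adult and 6.52 for teratoma, each with an SE of 1.04 to 1.07, most of which is spread among the 3 embryo libraries.

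Mt2, the partner gene of Mt1, had the same low embryonic level and a different order above it. Its FPKM was 1.55, 4.58 and 3.00 in embryo and 244, 387 and 297 in teratoma. It was 797, 709 and 862 in transplant and 1197, 1093 and 761 in adult. The transplant and adult groups overlapped, both lay above teratoma, and teratoma lay above embryo. With median-ratio scaling transplant lay below adult without overlap, and with quantile normalization they overlapped and differed by 0.0141. Group means were 3.04 ± 1.52 (SD, n = 3) in embryo, 310 ± 72.2 in teratoma, 790 ± 76.9 in transplant and 1017 ± 227 in adult, so the adult mean was 334 times the embryonic one. Mt2 ranked 11 to 17 in the adult libraries and 21 to 24 in transplant.

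**Figure D1:**
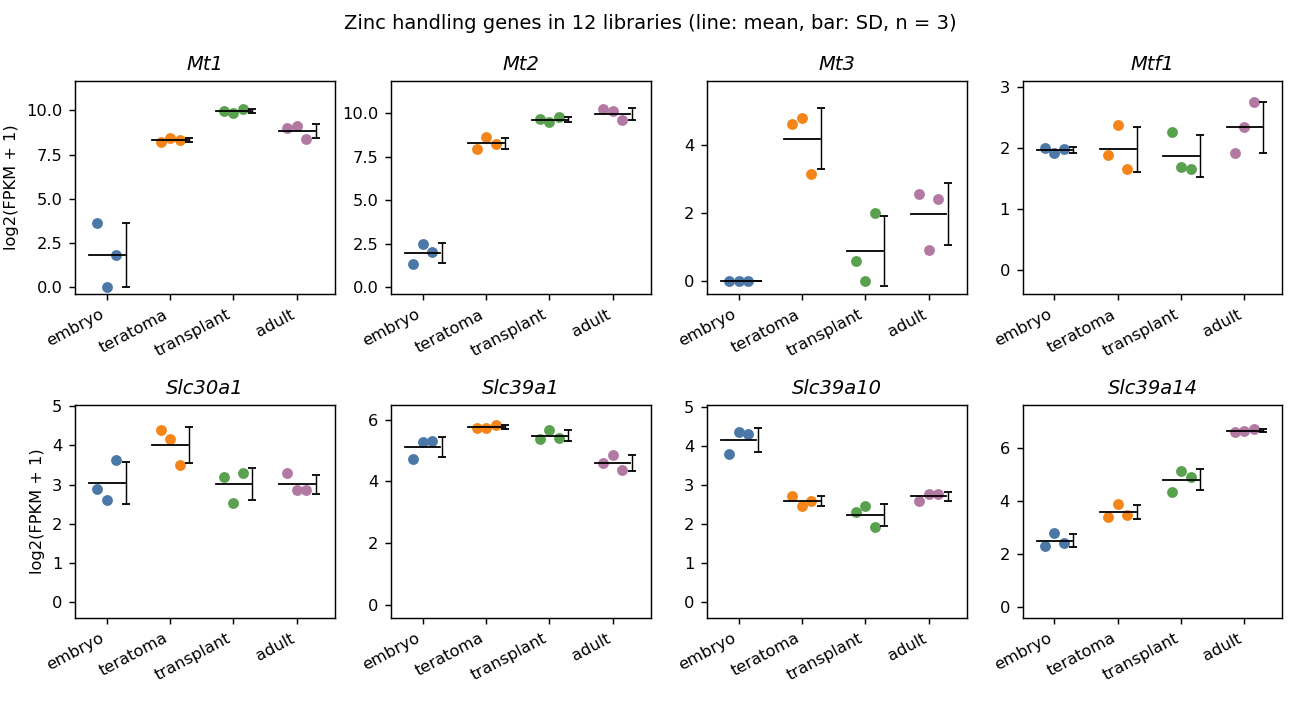
Level of each of the 8 genes in each library, on a log2(FPKM + 1) axis, with 1 point per library, a line at the group mean and a bar of 1 SD (n = 3). Mt1 and Mt2 are near the floor in embryo and high in the other 3 groups, Slc39a10 is highest in embryo, Slc39a14 is highest in adult, and Mtf1 overlaps between all groups in these deposited values.

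The balance between Mt1 and Mt2 differed between adult cells and both teratoma and transplant cells. The ratio of Mt2 to Mt1 FPKM inside a library does not change with library scaling. It was 2.35, 1.94 and 2.28 in adult, 0.838, 1.12 and 0.918 in teratoma, and 0.786, 0.758 and 0.787 in transplant. The adult ratios did not overlap with either, and the transplant ratios lay below all 3 teratoma ratios. Group means were 2.19 ± 0.221 (SD, n = 3), 0.960 ± 0.148 and 0.777 ± 0.0164. In embryo the ratio was 0.139 and 1.20 in the libraries where Mt1 was above 0, at levels too low to read a balance. Over all 12 libraries Mt1 and Mt2 varied together (Pearson r = 0.94 of log2(FPKM + 1)). The r of their deviations from the group means was -0.60. The widest Mt1 deviations were in embryo, near the floor, where Mt1 was 11.2, 0 and 2.50 and Mt2 1.55, 4.58 and 3.00. Inside teratoma and inside transplant the libraries had the same order for both genes, and adult replicate 3 was the lowest of its group for both. Both r values are descriptions over libraries that share their group means and scaling.

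**Figure D2:**
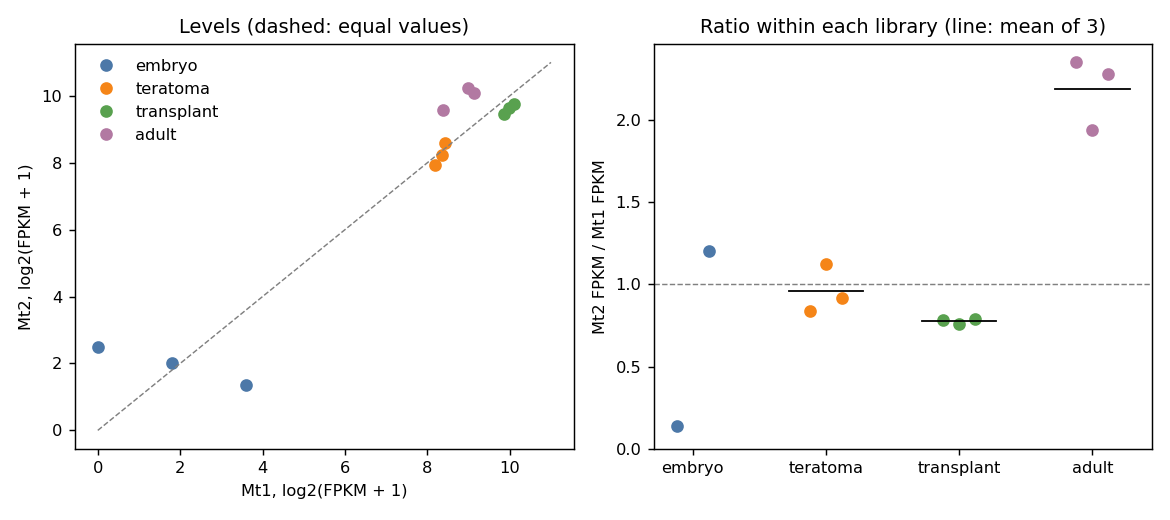
Left, Mt2 against Mt1 in each library on log2(FPKM + 1) axes, with a dashed line at equal values. Right, the ratio of Mt2 to Mt1 FPKM in each library on a linear axis from 0, with a line at the mean of 3 libraries (no line for embryo, where 1 library has Mt1 at 0): adult ratios lie between 1.94 and 2.35, teratoma and transplant ratios between 0.758 and 1.12.

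Mt3, a metallothionein best known from neurons and astrocytes, was highest in teratoma. Its FPKM was 23.7, 26.6 and 7.88 there, against 0.487, 0 and 3.01 in transplant and 4.86, 0.875 and 4.36 in adult. It was listed at 0 in all 3 embryo libraries. Teratoma lay above every other group, and transplant overlapped with both adult and embryo. Teratoma replicate 3, the lowest of its group for Mt3, was also the lowest for summed astroglial and neural markers (61.1 FPKM against 124 and 106 in replicates 1 and 2). Gfap, an astrocyte filament gene, was at 47.4, 56.9 and 26.6 in teratoma, at 0 in all embryo libraries and at most 0.569 in transplant and adult. Embryo held a neural marker sum of 28.7 to 91.0, Fabp7 the most abundant, with Mt3 at 0. The part of such cells in the Mt3 level of teratoma was not tested.

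Mtf1, the zinc sensor, was low in all groups. Its FPKM was 3.01, 2.76 and 2.95 in embryo, 2.68, 4.20 and 2.15 in teratoma, 3.78, 2.2 and 2.13 in transplant and 2.78, 4.06 and 5.71 in adult. Every pair of groups overlapped in the deposited values, and the largest difference of group means was -0.47 on the log2 scale, for transplant against adult. Rescaled by median ratios or quantile normalized, the 3 adult libraries lay above the 3 embryo libraries, by 0.79 and 0.95. With quantile normalization they also lay above teratoma and transplant (-1.07 for teratoma and -0.86 for transplant against adult).

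Slc30a1 encodes ZnT1, the exporter of the plasma membrane, and is a textbook MTF1 target. Its FPKM was 19.9, 17.0 and 10.3 in teratoma and 8.17, 4.82 and 8.85 in transplant. It was 6.45, 5.06 and 11.4 in embryo and 8.81, 6.25 and 6.29 in adult. Teratoma lay above transplant and adult and overlapped with embryo, and the other 3 groups overlapped with each other. The transplant and embryo means, 7.28 ± 2.16 and 7.65 ± 3.35 (SD, n = 3), differed by -0.03 ± 0.389 (SE) on the log2 scale, in the same groups whose Mt2 means differed by 7.68 ± 0.337. With median-ratio or quantile scaling the separation of teratoma from transplant and from adult was lost (0.53 and 0.58 for teratoma against adult, from 1.01), and teratoma no longer overlapped with embryo.

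Slc39a1 encodes ZIP1, a widely expressed plasma membrane importer, and was the most abundant of the 3 importer members outside adult. Its FPKM was 52.2, 51.3 and 55.3 in teratoma, 40.6, 50.2 and 41.1 in transplant, 25.7, 38.1 and 38.9 in embryo and 23.2, 27.9 and 19.5 in adult. Teratoma was above transplant and transplant above embryo without overlap, and embryo overlapped with adult. The step from teratoma to transplant, -0.27 on the log2 scale, turned to 0.0448 with median-ratio scaling, and those groups then overlapped.

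Slc39a10 encodes ZIP10, an importer that zinc is known to repress through MTF1. It was the only member with its highest level in embryo. Its FPKM was 12.9, 19.6 and 19.1 in embryo, 5.62, 4.49 and 5.02 in teratoma, 3.98, 4.51 and 2.81 in transplant and 4.99, 5.86 and 5.86 in adult. All embryo libraries lay above all others. Teratoma overlapped with transplant and adult in the deposited values, and transplant lay below adult. Rescaled, teratoma lay below adult without overlap. Their difference, -0.12 as deposited, was -0.57 with median-ratio scaling, -0.70 with quantile normalization and -0.29 without small and ribosomal RNA. The embryo mean, 17.2 ± 3.68 (SD, n = 3), was followed by 5.57 ± 0.504 in adult, 5.04 ± 0.565 in teratoma and 3.77 ± 0.872 in transplant. Over the 12 libraries Slc39a10 ran opposite to Mt1 (r = -0.97) and Mt2 (r = -0.92), and the r of deviations from group means was -0.67 with Mt1 and 0.17 with Mt2. The widest Mt1 deviations were in embryo, near the floor (11.2, 0 and 2.50), so no link inside the groups is read from the -0.67.

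Slc39a14 encodes ZIP14, which carries zinc and also iron and manganese and is known to be induced by interleukin 6. It was the only member for which no pair of groups overlapped. Its FPKM was 3.98, 5.90 and 4.34 in embryo, 9.37, 13.9 and 10.1 in teratoma and 19.4, 33.7 and 28.9 in transplant. In adult it was 95.4, 98.9 and 103. Adult cells held 20.9 times the embryonic mean, a log2 difference of 4.14 ± 0.147 (SE), and transplant cells 0.276 times the adult mean. Slc39a14 ranked 338 to 367 among the 22499 symbols in adult. The order embryo, teratoma, transplant, adult and the separation of all 6 pairs were the same with median-ratio scaling, with quantile normalization and without small and ribosomal RNA.

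All 8 members passed the filter of at least 1 FPKM in at least 3 libraries, which left 12699 genes. Between adult and embryo, 5 of the 8 did not overlap (4 higher and 1 lower in adult), where 58.5% of all genes tested did not. Between teratoma and embryo, 6 did not overlap, against 37.4% of all genes. The count was 5 between transplant and embryo (50.3% of all genes), 6 between transplant and teratoma (41.6%), 4 between transplant and adult (57.6%) and 5 between teratoma and adult (58.4%). Comparisons with a group in common share that group's libraries. Because the members were chosen on these values, nothing is read from the counts. The median gene also moved: its log2 difference was -0.42 for adult against embryo, 0.01 for teratoma against embryo, -0.24 for transplant against embryo, -0.28 for transplant against teratoma, 0.23 for transplant against adult and 0.50 for teratoma against adult.

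The genes most like a member were ranked by Pearson r of log2(FPKM + 1) over the 12 libraries among 7004 genes, as a description. For Mt1 they were Gadd45a (0.98), Cd9 (0.98), Gadd45b (0.98), Ly6a (0.98) and C1s (0.98). For Mt2 they were H2-D1 (0.99), Gem (0.99), Jsrp1 (0.99), Zbtb20 (0.98) and Ace (0.98). Slc39a14 was followed most closely by Nol12 (0.99), Asb5 (0.98), 2010111I01Rik (0.98), Cpeb1 (0.98) and Mafk (0.98). Slc39a10 was followed by Disp1 (0.96), Gps1 (0.95), H19 (0.95), Mpdz (0.95) and Hbb-y (0.95). These genes share the libraries, scaling and group means of the member.

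Of 21 other zinc transporter genes, 12 passed the filter and were tested with limma across all genes, and 7 of the 12 were called (adjusted p under 0.05) in at least 1 of the 6 comparisons. Transplanted cells carried more Slc39a13 and less Slc39a6 than adult cells. Slc39a13 encodes ZIP13, an importer of the secretory pathway needed for connective tissue. Its FPKM was 15.4, 17.0 and 16.8 in transplant, 6.85, 8.95 and 5.18 in teratoma, 7.56, 2.96 and 3.17 in embryo and 0.800, 2.42 and 1.04 in adult. It was 2.90 ± 0.33 (SE) higher in transplant than in adult (limma adjusted p = 4.18e-05), 1.74 higher than in embryo (adjusted p = 0.00126) and 1.75 higher in teratoma than in adult (adjusted p = 0.00126). Summed fibroblast markers, Col1a1 the most abundant, were also highest in transplant (3980 to 6184 FPKM, against 2126 to 3440 in teratoma, 1866 to 2718 in embryo and 1015 to 1477 in adult), and their part in the Slc39a13 level was not tested.

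Slc39a6 encodes ZIP6, the closest relative of ZIP10. It was at 9.36, 12.1 and 11.9 FPKM in transplant, 24.4, 22.7 and 24.1 in adult, 22.7, 29.2 and 26.5 in embryo and 24.6, 17.6 and 17.6 in teratoma. The transplant libraries were the 3 lowest. Against adult it fell by 1.04 on the log2 scale (limma adjusted p = 0.000603), against embryo by 1.16 (adjusted p = 0.00024) and against teratoma by 0.78 (adjusted p = 0.00846, and 0.0544 with median-ratio scaling). Adult and embryo differed by -0.13 (adjusted p = 0.577), and by 0.40 with median-ratio scaling (adjusted p = 0.0481). Teratoma against embryo was not called (adjusted p = 0.133), but it was with quantile normalization (-0.44, adjusted p = 0.0497) and without teratoma replicate 1 (-0.54, adjusted p = 0.0465). Teratoma against adult was not called either (-0.26, adjusted p = 0.25), but it was with median-ratio scaling (-0.77, adjusted p = 0.00188), with quantile normalization (0.0388) and without small and ribosomal RNA (0.0449).

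Slc30a4 encodes ZnT4, an exporter of intracellular vesicles. It was at 5.82, 7.16 and 5.98 in embryo, 13.1, 14.3 and 12.4 in adult, 15.7, 10.4 and 12.9 in teratoma and 9.30, 10.7 and 6.33 in transplant. It was 0.96 higher in adult than in embryo (limma adjusted p = 0.0023) and 0.93 higher in teratoma than in embryo (adjusted p = 0.00744). Its lower level in transplant than in adult (-0.57, adjusted p = 0.0475) was lost without transplant replicate 1 or 3, any adult library, embryo replicate 1 or 3 or teratoma replicate 3 (adjusted p from 0.052 to 0.189) and with no filter (0.0587). Transplant against embryo was not called. It was called higher with median-ratio scaling (0.67, adjusted p = 0.0198), with quantile normalization (0.72, 0.0177) and without small and ribosomal RNA (0.57, 0.0444). Leaving out transplant replicate 3 also gave that call (0.59, 0.0481).

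Slc39a3 (ZIP3, a plasma membrane importer) and Slc39a7 (ZIP7, which releases zinc from the endoplasmic reticulum) were higher in transplant than in adult. For Slc39a3 the means were 4.46 ± 0.712 and 1.02 ± 0.266 FPKM (1.44 on the log2 scale, limma adjusted p = 0.00297). For Slc39a7 they were 44.4 ± 5.31 and 23.5 ± 1.69 (0.89, adjusted p = 0.00123). Slc39a3 was also lower in adult than in embryo (-1.18, adjusted p = 0.0071, and 0.242 with quantile normalization). Its call between transplant and teratoma (1.01, adjusted p = 0.0373) was lost without any 1 of their 6 libraries (adjusted p from 0.0544 to 0.117), without adult replicate 2 (0.0522) and with no filter (0.0572).

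The remaining calls were weak. Slc39a7 was called between transplant and embryo (0.48, limma adjusted p = 0.0356), but not without transplant replicate 1 or 2 or embryo replicate 1 or 2 (adjusted p from 0.0822 to 0.119) and not with only those groups in the fit (0.0758). Its call between teratoma and adult (0.49, adjusted p = 0.0325) was lost with median-ratio scaling (-0.0303, adjusted p = 0.89), with quantile normalization (0.135), without small and ribosomal RNA (0.131) and without teratoma replicate 2 or 3 or adult replicate 1 or 2 (adjusted p from 0.0557 to 0.126). Slc39a7 was not called between transplant and teratoma. It was called higher in transplant with median-ratio scaling (0.71, adjusted p = 0.00874), with quantile normalization (0.64, 0.019) and without small and ribosomal RNA (0.61, 0.0156). Slc39a13 was called between transplant and teratoma (1.15, adjusted p = 0.0281) but not without any 1 transplant library or teratoma replicate 1 or 3 (adjusted p from 0.0664 to 0.0882) or with a pseudocount of 0.1 (0.0646). It was also called between adult and embryo (-1.16, adjusted p = 0.0107), but not with median-ratio scaling (0.0686) or quantile normalization (0.241). Slc39a11 (ZIP11) and Slc30a9 (a mitochondrial zinc transporter) had 3 and 4 calls, each lost with median-ratio scaling (limma adjusted p from 0.0579 to 0.163 and from 0.119 to 0.642) and with quantile normalization. The Slc39a11 calls against adult were lost without any 1 transplant or adult library, without teratoma replicate 1 or 2 for teratoma (adjusted p from 0.0544 to 0.171), and its adult against embryo call without embryo replicate 1 or 2 or adult replicate 3 (0.0601 to 0.0758). The Slc30a9 calls were lost without adult replicate 2 (0.0793 against embryo, 0.0661 for teratoma against adult), embryo replicate 3 (0.0684 and, for transplant, 0.0677), transplant replicate 1 (0.0657 against embryo, 0.0879 against teratoma), transplant replicate 3 (0.0565 against teratoma), teratoma replicate 1 (0.0606 against adult, 0.104 for transplant) or teratoma replicate 2 (0.0502 for transplant).

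By comparison, 1 of the 12 was called higher and 4 lower in adult than in embryo, where 15.8% of all genes were called higher and 36.9% lower. Between teratoma and embryo, 1 was higher and 0 lower (15.5% and 10.6% of all genes). Between transplant and embryo, 2 were higher and 2 lower (14.9% and 27.6%), and between transplant and teratoma again 2 and 2 (4.18% and 18.5%). Between transplant and adult, 4 were higher and 2 lower (27.3% and 16.9%), and between teratoma and adult 4 were higher and 0 lower (36.4% and 8.94%). The medians of the 12 log2 changes were -0.39, 0.05, 0.04, -0.08, 0.18 and 0.31 in this order, beside -0.42, 0.01, -0.24, -0.28, 0.23 and 0.50 for all genes. Leaving out 1 library gave 2 for teratoma against embryo (teratoma or embryo replicate 1), 2 for transplant against embryo (transplant replicate 1), 1 or 2 for transplant against teratoma (any 1 of those 6) and 1 or 2 for teratoma against adult (teratoma or adult replicate 1 or 2). Median-ratio scaling gave 2 higher and 1 lower for adult against embryo and 1 and 2 for teratoma against adult. Over all genes the share of calls that were higher moved with it from 30.0% to 50.1% for adult against embryo, from 35.0% to 51.4% for transplant against embryo, from 18.5% to 44.1% for transplant against teratoma, from 61.7% to 51.7% for transplant against adult and from 80.3% to 52.6% for teratoma against adult.

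**Figure D3:**
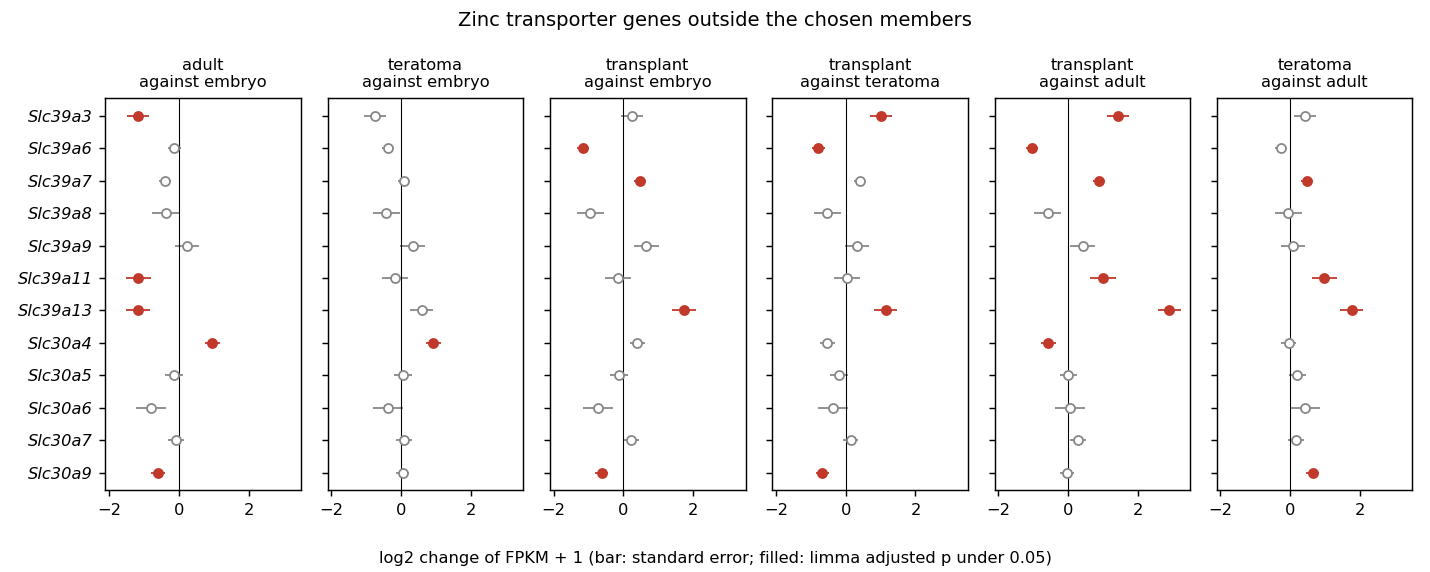
Log2 change of FPKM + 1 for the 12 tested zinc transporter genes outside the chosen set, in 6 comparisons, with bars of 1 standard error from limma and filled points where the adjusted p was under 0.05. Slc39a13 has the largest change, 2.90 between transplant and adult, and Slc39a6 lies left of 0 in all 3 transplant panels.

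Of 8 locus neighbours of the metallothioneins found in the table, 6 were tested, and 2 were called higher and 2 lower in adult than in embryo, where 15.8% of all genes were called higher and 36.9% lower. Herpud1, an endoplasmic reticulum stress gene, was highest in transplant: its FPKM was 73.9, 73.8 and 80.6 there, 46.2, 38.8 and 36.9 in teratoma, 28.9, 37.4 and 46.2 in adult and 16.6 ± 3.79 (mean and SD) in embryo (2.15 higher in transplant than in embryo, limma adjusted p = 5.37e-06). Nup93, a nuclear pore gene, went the other way, at 17.4 ± 4.23 FPKM in embryo and 6.13 ± 0.929 in adult (-1.35, adjusted p = 0.000141).

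Of 9 other genes listed as MTF1 targets, 8 were tested. In adult against embryo 2 were called higher and 5 lower, beside 15.8% and 36.9% of all genes. With median-ratio scaling 2 and 4 of the list were called there. In both teratoma and transplant 3 were higher and 1 lower than in embryo. The shares of all genes were 15.5% and 10.6% in teratoma and 14.9% and 27.6% in transplant. Ndrg1, a hypoxia- and metal-induced gene, was at 281 ± 33.1 FPKM in adult, 68.7 ± 5.69 in teratoma, 69.0 ± 18.2 in transplant and 21.3 ± 8.18 in embryo (adult against embryo 3.71, limma adjusted p = 2.71e-07). Gclc, which makes the catalytic subunit of a glutathione synthesis enzyme and is also in the oxidative stress list, was at 36.0 ± 4.29 in adult and 5.13 ± 1.34 in embryo (2.61, adjusted p = 1.35e-05). Sepw1, a selenoprotein gene, was at 13.6 ± 3.26 in adult and 86.4 ± 32.0 in embryo (-2.52, adjusted p = 4.24e-05), the opposite order to Mt2. Fos, which is also a dissociation response gene, peaked in transplant at 873 ± 96.4 FPKM, 2.91 above adult (adjusted p = 1.21e-06).

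Iron handling genes were set beside Slc39a14 because ZIP14 also carries iron. Of 14 tested, 5 were called higher and 2 lower in adult than in embryo, beside 15.8% and 36.9% of all genes. With median-ratio scaling 8 of 15 were higher and 1 lower. Fth1, the ferritin heavy chain, was at 403 ± 38.2 FPKM in adult, 351 ± 15.3 in transplant, 315 ± 77.1 in teratoma and 160 ± 31.0 in embryo, and was called higher than embryo in all 3 groups (limma adjusted p = 0.000108, 0.000524 and 0.00327). Ftl1, the ferritin light chain, was called in none of the 6 comparisons (adjusted p from 0.0829 to 0.715). With median-ratio scaling it was called higher in adult than in embryo (1.06, adjusted p = 0.0117). Leaving out embryo replicate 3 gave that call too (0.90, adjusted p = 0.0138) and 1 for teratoma against embryo (1.19, adjusted p = 0.00803). It was called lower in transplant than in teratoma without embryo replicate 2 (-0.64, adjusted p = 0.024), with library weights (0.0397) and with only the groups compared in the fit (0.0256), which also gave a call against adult (0.0444). Steap3, an endosomal iron reductase gene, was highest in transplant at 34.5, 32.0 and 30.2 FPKM, against 5.56, 7.22 and 3.26 in adult (2.44, adjusted p = 0.000383). Tfrc, the transferrin receptor, was lowest there, at 3.01, 3.40 and 4.76 against 25.4, 19.2 and 19.6 in adult (-2.25, adjusted p = 3.6e-05). Fam132b, which encodes erythroferrone, fell by 6.20 in transplant against adult (adjusted p = 9.08e-06) and by 7.12 in teratoma (adjusted p = 2.76e-06).

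Copper genes were set beside the metallothioneins because these bind copper. Of 10 tested, 1 was called higher and 4 lower in adult than in embryo, near the 15.8% and 36.9% of all genes, and 1 and 2 with median-ratio scaling. Commd1, which takes part in copper export, was at 9.24 ± 2.05 FPKM in adult and 41.1 ± 14.1 in embryo (-2.01, limma adjusted p = 2.38e-05). Slc31a1, the copper importer CTR1, was the gene that rose, by 0.90 to 21.3 ± 3.22 (adjusted p = 0.0103).

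Response and pathway genes of other known inducers of Mt1 and Mt2 were set beside them, and the part of these inducers in the Mt1 and Mt2 levels was not tested. The interleukin 6 and STAT3 list holds ligand and receptor genes and Stat3 itself beside response genes. Of its 12 genes, 11 were called higher than embryo in adult, 11 in teratoma and 11 in transplant, with medians of 2.11, 2.24 and 2.23, where 15.8%, 15.5% and 14.9% of all genes were called higher. Called lower than embryo were 1 in adult, 0 in teratoma and 0 in transplant, beside 36.9%, 10.6% and 27.6% of all genes. Il6 itself was at 0.829, 0 and 0 FPKM in embryo, 35.4, 42.9 and 55.4 in teratoma, 22.2, 37.1 and 27.2 in transplant and 92.0, 113 and 58.6 in adult (adult against embryo 6.13, limma adjusted p = 4.28e-08). Socs3, the feedback inhibitor induced by STAT3, had a different order, with 239 ± 32.7 FPKM in transplant, 83.7 ± 22.5 in teratoma, 43.7 ± 2.67 in adult and 20.6 ± 2.55 in embryo (transplant against adult 2.42, adjusted p = 6.17e-06). Pim1, a STAT3-induced kinase gene, was highest in adult, at 231 ± 34.5 FPKM, and differed by -2.37 in transplant against adult (adjusted p = 5.06e-05).

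Of 12 glucocorticoid response genes, 9 were called higher and 0 lower in adult than in embryo, 9 and 1 in teratoma and 8 and 1 in transplant. Of all genes, 15.8%, 15.5% and 14.9% were called higher and 36.9%, 10.6% and 27.6% lower, in this order. Nr3c1, the glucocorticoid receptor, was at 8.80 ± 2.31 FPKM in embryo against 18.7 ± 1.81 in adult, 18.2 ± 2.67 in teratoma and 22.7 ± 1.26 in transplant (limma adjusted p = 0.00069, 0.00259 and 0.000185). Klf9, a receptor-induced transcription factor gene, was at 5.75 ± 1.03 in embryo and 112 ± 16.7 in adult (4.06, adjusted p = 4.28e-08). Cebpd, also in the interleukin 6 list, was highest in transplant, at 186 ± 16.0 FPKM against 19.2 ± 6.74 in embryo (3.26, adjusted p = 1.47e-06), as was Mt1. Tsc22d3, another receptor-induced gene, was at 24.0, 15.6 and 29.4 in transplant and 2.57, 5.04 and 4.88 in adult (2.21, adjusted p = 0.000806). Klf9 went the other way, by -1.82 in transplant against adult (limma adjusted p = 3.6e-05). In that comparison 3 of the 12 genes were called higher and 5 lower, beside 27.3% and 16.9% of all genes. Their median was -0.22, beside 0.23 for all genes.

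Of 12 oxidative stress genes, 8 were called higher and 2 lower in adult than in embryo (median 1.86), 8 higher and 0 lower in teratoma than in embryo (median 0.92), and 4 higher and 1 lower in transplant than in embryo (median 0.19). Of all genes, 15.8%, 15.5% and 14.9% were called higher and 36.9%, 10.6% and 27.6% lower, in this order. In transplant against adult 1 was higher and 8 lower, beside 27.3% and 16.9% of all genes. Hmox1, the inducible heme oxygenase, was at 1154 ± 151 FPKM in adult, 226 ± 28.2 in teratoma, 94.3 ± 24.9 in transplant and 15.6 ± 4.81 in embryo. It fell by 3.63 in transplant against adult (limma adjusted p = 1.72e-06). Srxn1 and Txnrd1, which repair and reduce oxidized proteins, differed by -3.49 and -2.72 in transplant against adult (adjusted p = 4.18e-05 and 5.6e-06).

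The 13 genes of the dissociation response, immediate early and heat shock genes that enzymatic digestion can induce, were highest as a sum in transplant. Their summed FPKM ran from 5005 to 6262 in transplant, 2781 to 3598 in teratoma, 1970 to 2209 in adult and 1580 to 2258 in embryo. In transplant 11 were called higher and 0 lower than in embryo (14.9% and 27.6% of all genes). Against adult 10 were higher and 1 lower in transplant (27.3% and 16.9% of all genes). Against teratoma 6 were higher and 1 lower in transplant (4.18% and 18.5% of all genes). The heat shock gene Hspa1b was at 480 ± 100 FPKM in transplant and 88.5 ± 16.5 in adult (2.42, limma adjusted p = 1.41e-05). In adult against embryo 4 were higher and 6 lower (15.8% and 36.9% of all genes), and with median-ratio scaling 6 higher and 0 lower. The part of digestion in the Mt1 and Mt2 levels was not tested.

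**Figure D4:**
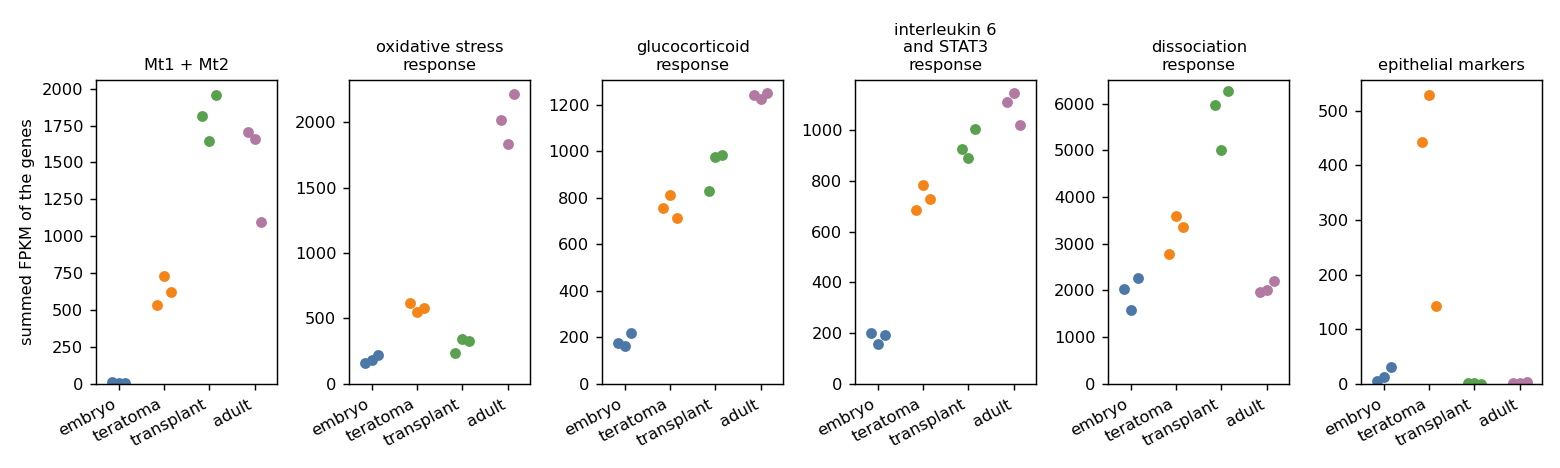
Summed FPKM in each library of Mt1 and Mt2, of 4 lists of response and pathway genes and of the epithelial markers, on linear axes from 0 (1 point per library, 3 per group). Interleukin 6 and glucocorticoid lists are lowest in embryo and higher in all other groups, the oxidative stress list peaks in adult, the dissociation list in transplant and the epithelial markers in teratoma.

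Markers of other cell types were set beside these levels, since metallothioneins are abundant in many epithelia and in liver. Summed epithelial markers were 142 to 529 FPKM in teratoma, with Reg3g at 203, 159 and 26.5, against 0.435 to 2.22 in transplant, 5.26 to 31.3 in embryo and 1.26 to 4.12 in adult. Endoderm and liver markers summed to 111 to 238 in teratoma, most of it Ttr, and Ttr was listed at 0 in the other 9 libraries. Leukocyte markers summed to 43.3 to 140 in teratoma and 3.30 to 26.1 elsewhere, with Ptprc, the gene of CD45, at most 1.44 in any library. Endothelial markers ran from 47.3 to 57.3 in teratoma and 8.39 to 44.8 elsewhere. Of the epithelial genes, 8 of 9 tested were called higher in teratoma than in embryo (15.5% of all genes). In transplant 9 were called lower than in teratoma (18.5% of all genes). In transplant, where Mt1 and Mt2 were higher than in teratoma, the epithelial, endoderm, neural, leukocyte and endothelial sums were lower. The fibroblast sum was higher in transplant (3980 to 6184 against 2126 to 3440), and 5 of its 10 genes were called higher and 1 lower (4.18% and 18.5% of all genes). The part of other cells in the teratoma and transplant levels of Mt1, Mt2, Slc30a1 and Slc39a1 was not tested.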

How the data were processed

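Total RNA of sorted mouse cells was measured in 12 libraries, 3 per group. Per the labels' protocols, the kit was SMARTer Stranded Total RNA-seq Pico. The values, as deposited by the authors, are FPKM in 1 table, with a row for each gene symbol entry. The tools named, without roles, are Cufflinks 2.2.1.0, TopHat 0.7, CASAVA 1.8.2 and Partek, with the build mm10, per the submitters' processing notes. Not given in the sources used here are the annotation, whether strand was used, read counts and mapping rates.

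The 23746 entries of the table were reduced to 23284 symbols by summing 702 entries of 240 repeated symbols. The filter kept 12699 genes that reached 1 FPKM in 3 or more libraries, and these were tested on log2(FPKM + 1) with limma 3.58.1 in R 4.3.3, with a trended prior, 1 model over 4 groups (8 residual degrees of freedom) and Benjamini-Hochberg adjustment over all genes. The call threshold was an adjusted p of 0.05. The p-values set each group difference against the spread between libraries of a group, pooled over the 4 groups and moderated by the prior. Within-library ratios and ranks, promoter motif matches and marker sums were computed from the same table and from RefSeq promoter windows.

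The members and gene lists were chosen with earlier results of these data known. Named are all 8 members, each other zinc transporter called in any comparison, up to 3 called genes with the largest change per list and comparison, Fth1, Ftl1 and Nr3c1, the most abundant markers, and the 5 genes most like Mt1, Mt2, Slc39a10 and Slc39a14. Gfap, Fabp7 and Ptprc are given as marker values. Alternatives covered the pseudocount, filters, scaling, small RNA, groups in the fit, weights, isolated zeros, a replicate block and each library left out. The test was tried on simulated data first.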

Additional observations from a re-analysis of the deposited data

How the results depend on the processing

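Of 576 member differences under alternatives, 533 moved by less than the spread between replicates, 42 moved more and 1 reversed, Slc39a1 between transplant and teratoma (0.0448 with median-ratio scaling). With a pseudocount of 0.1, Mt1 differed from embryo by 7.80 in teratoma and 9.47 in transplant and Mt2 by 8.09 in transplant. With median-ratio scaling, Mt2 was 8.49 higher in adult than in embryo, Mt1 and Mt2 were 1.98 and 1.69 higher in transplant than in teratoma, and their teratoma against adult differences were -1.05 and -2.25. Without small and ribosomal RNA, Mt1 was 1.88 higher in transplant than in teratoma, and with quantile normalization Mt2 differed by 0.0141 between transplant and adult. The count of other zinc transporters called in adult against embryo was 5, and it was 3 with the filter at a mean of 5 FPKM, 3 with median-ratio scaling and 1 with quantile normalization. For teratoma against embryo it was 1, and 2 without a filter or with quantile normalization. For teratoma against adult it was 4, and 2 with quantile normalization. With each library left out in turn, these counts ran from 4 to 5, from 1 to 2 and from 1 to 4, and those of transplant ran from 2 to 5 against embryo, from 1 to 4 against teratoma and from 4 to 6 against adult. Calls of named genes were the same in 4009 alternatives, lost in 196 and gained in 30. In 2 more the sign changed and a call was gained or lost, both with median-ratio scaling. Slc39a6 in adult against embryo gained a call (0.40, limma adjusted p = 0.0481). Slc39a7 in teratoma against adult lost its call (-0.0303, limma adjusted p = 0.89). The libraries share replicate numbers, but same-numbered libraries did not deviate together (correlations from -0.10 to 0.10). With a replicate block the zinc transporter counts were 5 for adult and 1 for teratoma against embryo, 3, 3 and 5 for transplant against embryo, teratoma and adult, and 3 for teratoma against adult, beside 5, 1, 4, 4, 6 and 4 without it. Read depth is unknown and 3 libraries per group limit the precision.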
